A study of Mus musculus with 12 samples.

Results

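The genes described here are 10 members of the Eph and ephrin family, taken by name from every count table of the series. They are the 6 receptor genes Ephb2, Ephb3, Ephb4, Ephb6, Epha1 and Epha2 and the 4 ligand genes Efnb1, Efnb2, Efna1 and Efna4, out of 22 family genes and 23366 gene entries. All 10 passed the filter on low counts, as did 8 of the other 12 family genes and 15342 genes in all. Reads per gene were counted in 12 mouse small-intestine libraries, 3 for each of 4 groups, all on a mixed C57BL/6 CD1 background. E12.5 and E14.5, named for the embryonic day, were gut epithelium positive for EpCAM, a surface protein of epithelia, and negative for CD31 (endothelium) and CD45 (white blood cells). ISC were adult crypt cells with high Lgr5-EGFP fluorescence and AE were adult villus cells sorted on the same surface proteins as the embryonic cells and labelled as enterocytes. Both adult groups came from Lgr5EGFP-Cre-ERT males at postnatal day 60, so ISC and AE share that allele. Each adult library came from 1 gut and each E12.5 library from pooled embryos. The labels give neither the genotype of the embryos nor the size of the E14.5 pools. The age labels of all 6 embryonic libraries give the other stage than their titles, and the titles were followed, so the direction of the embryonic comparison rests on them.

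Eph receptors are receptor tyrosine kinases, and their ephrin ligands stay attached to the surface of the neighbouring cell, so signalling needs contact and can run into both cells. Ephrin-A proteins are held by a lipid anchor and bind mostly EphA receptors, whereas ephrin-B proteins span the membrane and bind mostly EphB receptors. In the adult intestine EphB2 and EphB3 are known as products of Wnt target genes in the crypt, ephrin-B proteins are known from the cells nearer the villus, and contact between the 2 sets of cells is known to keep crypt cells in place.

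Total gene counts ran from 12587626 to 45190749 per library. Levels below are normalised CPM, read counts scaled to the size of each library, given as each library's value or as mean ± SD of 3 libraries. A gene was called where the adjusted p of edgeR's quasi-likelihood test was under 0.05. Fold changes carry the standard error (SE) of their log2 value. The stem-cell marker gene Lgr5 stood at 508 ± 39.6 CPM in ISC and 23.3 ± 3.20 CPM in AE. Olfm4, also a stem-cell marker, went from 5743 ± 229.9 CPM to 606 ± 58.7 CPM, 9.48-fold lower in AE. The brush-border phosphatase gene Alpi stood at 27.8 ± 16.1 and 2824 ± 894 CPM. Epcam was between 429 and 2051 CPM in every library. The endothelial gene Pecam1 was at most 1.47 CPM and the white-cell gene Ptprc at most 2.53 CPM in any library. The collagen gene Col3a1 stood at 10.8 ± 0.234 CPM in E12.5 and 67.6 ± 10.95 CPM in E14.5, against at most 0.0634 CPM in any adult library. Multiply aligned reads were listed for E12.5 and ISC only, with 0 for each E14.5 and AE library. Of the comparisons below, those of ISC with E12.5 and of AE with E14.5 stay on 1 side of this split. In the other 4 a batch that follows it cannot be told apart from the group. In sorted bulk samples, fewer cells that express a gene and less of its RNA per cell cannot be told apart.

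The comparison of AE with ISC asked how the family differs between villus and crypt. The B-type receptor genes Ephb2, Ephb3 and Ephb4 were 3.54- to 6.82-fold lower in AE, and the B-type ligand genes Efnb1 and Efnb2 were 1.67- and 11.5-fold higher. The A-type receptor genes Epha1 and Epha2 and the ligand gene Efna1 were also higher in AE, and Efna4 was lower. In all, 5 of the 10 genes were called higher and 5 lower, against 32.6% and 35.2% of all genes tested and 67.8% called either way. The 2 groups did not overlap for 9 of the 10, against 66.3% of all genes. Markers of other cell types also moved between these groups. Over 7 genes, goblet-cell markers summed to between 1110 and 1495 CPM in ISC and to between 17025 and 27624 CPM in AE, with 7 of 7 called higher. Over 7 genes, enteroendocrine markers summed to between 107 and 169 CPM in ISC and to between 1283 and 1648 CPM in AE. Of these, 5 were called higher and 1 lower. Over 10 genes, immune markers summed to between 569 and 762 CPM in ISC and to between 1304 and 3072 CPM in AE, mostly Cd74. Of the 9 immune markers tested, 4 were called higher and 0 lower. The part of these cell types in the differences of the Eph and ephrin genes was not tested.

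Ephb2 encodes the receptor by whose surface level crypt cells are often graded. It stood at 153, 156 and 172 CPM in the ISC libraries and at 54.7, 38.5 and 42.3 CPM in the AE libraries. In the embryo it stood at 92.5, 77.8 and 82.1 CPM at E12.5 and at 66.7, 68.2 and 59.4 CPM at E14.5. Every ISC library was above every other library, and every AE library below. Ephb2 was 3.54-fold lower in AE than in ISC (log2 change -1.82 ± 0.13 SE, adjusted p = 4.06e-08). The order of its levels was ISC, E12.5, E14.5, AE, and each neighbouring pair in that order differed (adjusted p = 1.80e-05, 0.0250 and 0.00234).

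Ephb3, the receptor gene also known from Paneth cells of the crypt base, had the largest fold of the 3 listed crypt-high receptor genes. It stood at 51.6, 56.0 and 50.7 CPM in ISC. In AE it stood at 8.66, 6.04 and 8.34 CPM, at E12.5 at 7.96, 7.37 and 8.47 CPM and at E14.5 at 7.80, 7.86 and 6.55 CPM. The ISC libraries lay far above the other 9, whose ranges overlapped each other. The gene was 6.82-fold lower in AE than in ISC (log2 change -2.77 ± 0.15 SE, adjusted p = 3.28e-09). AE did not differ from E12.5 (adjusted p = 0.813) or from E14.5 (adjusted p = 0.744) beyond the spread between libraries. Paneth-cell markers summed to between 2684 and 4297 CPM in ISC and to between 2942 and 6938 CPM in AE, mostly Lyz1, with 1 of the 6 called, lower in AE. The part of Paneth cells in the Ephb3 levels was not tested.

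Ephb4, a receptor gene best known from veins, had the highest level per length of the listed receptor genes in E12.5, E14.5 and ISC. It stood at 262, 276 and 294 CPM in ISC and at 99.5, 62.2 and 70.5 CPM in AE, with 161 ± 8.03 CPM at E12.5 and 146 ± 3.71 CPM at E14.5. The ISC libraries were the highest and the AE libraries the lowest, with no overlap with the embryo. Ephb4 was 3.57-fold lower in AE than in ISC (log2 change -1.84 ± 0.14 SE, adjusted p = 7.93e-08). E12.5 and E14.5 were the only neighbours in its order whose difference missed the threshold (adjusted p = 0.424). Over 10 genes, endothelial markers summed to between 5.35 and 6.84 CPM in ISC, mostly Esam, and to between 1.83 and 2.78 CPM in AE. In any library their sum was at most 8.35 CPM. The part of endothelial cells in the Ephb4 levels was not tested. The gene Zan, annotated across part of Ephb4 on the opposite strand, stood at 111 ± 14.2 CPM in ISC and 16.4 ± 7.43 CPM in AE. Without strand, reads of the 2 genes cannot be told apart where they overlap.

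Ephb6 encodes a receptor whose kinase domain is known to be inactive. It stood at 6.32, 6.84 and 6.60 CPM at E12.5 and at 4.21, 4.37 and 3.82 CPM at E14.5, but at 0.190, 0 and 0.217 CPM in ISC, and no read was counted in any AE library. The embryonic and adult libraries did not overlap. Against a floor of 3 counts over the AE group, 0.0606 CPM, E12.5 was at least 109-fold higher than AE and E14.5 at least 68.3-fold. The ISC mean was 2.24-fold that floor, which is not a lower bound, because it rests on 8 reads over the 3 libraries. ISC replicate 2 held no read, so ISC and AE overlapped. ISC was 28.7-fold lower than E14.5 (log2 change -4.85 ± 0.42 SE, adjusted p = 8.56e-07). Without ISC replicate 3 that log2 change was -5.51, and the one from E12.5 went from -5.51 to -6.16. The call of AE below ISC (adjusted p = 0.0141) was lost without ISC replicate 3 (adjusted p = 0.0549) and without AE replicate 1 (adjusted p = 0.0645). It was also lost with limma-voom, where the log2 change was -1.73 (adjusted p = 0.0761).

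**Figure D1:**
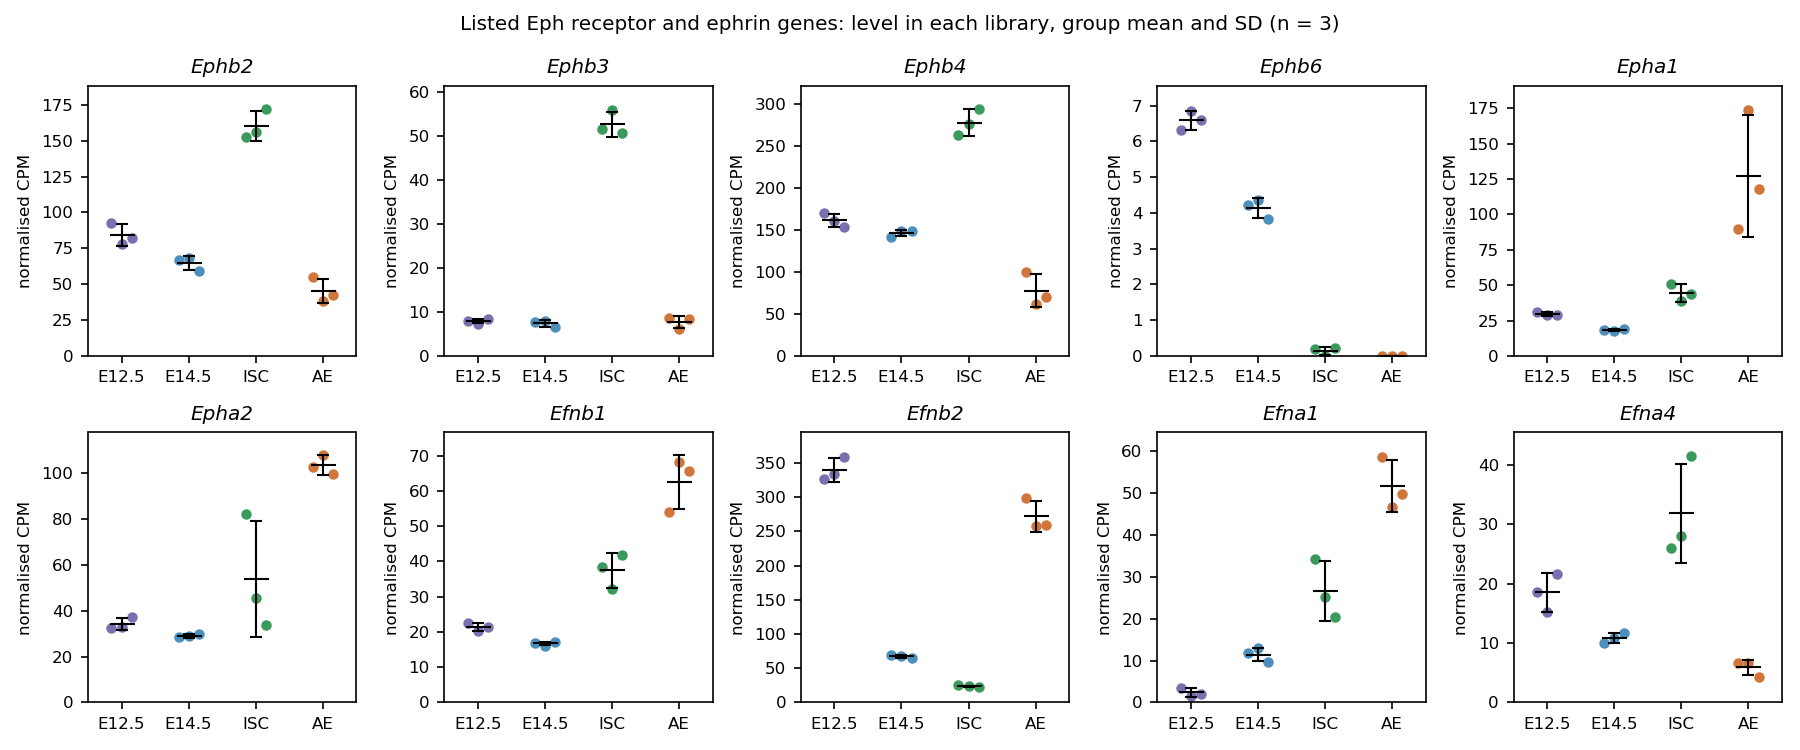
Level of each of the 10 listed genes in normalised CPM (linear axes from 0, scaled per gene) in the 3 libraries of each group, with the group mean and SD as bars. Ephb2, Ephb3 and Ephb4 are highest in ISC, Efnb2 is high in E12.5 and AE and lowest in ISC, and Ephb6 is at 0 in AE.

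Efnb2, the B-type ligand gene with the largest change between villus and crypt, stood at 24.8, 23.5 and 22.8 CPM in ISC and at 299, 258 and 259.6 CPM in AE. In the embryo it went from 327, 333 and 359 CPM at E12.5 to 69.7, 67.5 and 65.0 CPM at E14.5. Its groups did not overlap, and ISC was the lowest of the 4. Efnb2 was 11.5-fold higher in AE than in ISC (log2 change 3.52 ± 0.10 SE, adjusted p = 9.67e-11). E12.5 was 1.25-fold above AE (adjusted p = 0.00545), a call that was lost in a fit of those 2 groups alone (adjusted p = 0.0802).

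Efnb1, the other B-type ligand gene of the list, stood at 38.3, 32.1 and 41.9 CPM in ISC and at 53.9, 68.1 and 65.8 CPM in AE. It was lower in the embryo, at 21.5 ± 1.16 CPM at E12.5 and 16.7 ± 0.546 CPM at E14.5. The groups did not overlap, and their order was AE, ISC, E12.5, E14.5. Efnb1 was 1.67-fold higher in AE than in ISC (log2 change 0.74 ± 0.12 SE, adjusted p = 0.000116), a far smaller difference than that of Efnb2.

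The promoters of the 2 receptor genes most often named with the crypt and of the 2 B-type ligand genes are shown because these pairs moved in opposite directions between ISC and AE. Each line gives the 250 bases upstream of the RefSeq transcription start in GRCm38.p6, read 5′ to 3′ on the strand of the gene, with capitals on the motifs found. The motifs searched on both strands were ATCAAAG and its core CTTTG for the Wnt factors TCF and LEF, where a match of the first always holds the second, TGGGAA for the Notch factor RBPJ and the GC box GGGCGG.
Ephb2, chr4:136836013-136836262, minus strand: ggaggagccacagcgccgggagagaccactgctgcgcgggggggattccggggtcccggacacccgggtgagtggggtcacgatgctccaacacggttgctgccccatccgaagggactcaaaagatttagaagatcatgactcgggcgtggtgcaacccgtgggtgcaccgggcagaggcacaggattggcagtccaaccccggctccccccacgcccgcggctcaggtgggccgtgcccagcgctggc
Ephb3, chr16:21204545-21204794, plus strand: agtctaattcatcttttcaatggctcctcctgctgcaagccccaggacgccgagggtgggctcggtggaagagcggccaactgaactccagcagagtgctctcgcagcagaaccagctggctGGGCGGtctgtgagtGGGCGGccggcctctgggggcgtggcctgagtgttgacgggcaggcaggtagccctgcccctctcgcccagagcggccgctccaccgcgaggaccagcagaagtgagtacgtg
Efnb1, chrX:99135811-99136060, plus strand: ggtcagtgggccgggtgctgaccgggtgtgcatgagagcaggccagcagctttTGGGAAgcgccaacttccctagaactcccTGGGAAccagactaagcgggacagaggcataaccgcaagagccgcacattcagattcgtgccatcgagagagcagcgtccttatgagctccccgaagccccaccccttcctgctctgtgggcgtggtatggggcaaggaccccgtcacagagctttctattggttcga
Efnb2, chr8:8661243-8661492, minus strand: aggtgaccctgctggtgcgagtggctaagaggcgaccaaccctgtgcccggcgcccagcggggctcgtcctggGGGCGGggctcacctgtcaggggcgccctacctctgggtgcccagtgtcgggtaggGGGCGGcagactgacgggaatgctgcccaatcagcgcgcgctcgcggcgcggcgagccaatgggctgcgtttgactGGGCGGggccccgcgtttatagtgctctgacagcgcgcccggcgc
In these windows Ephb2 held none of the 4 motifs, Ephb3 held 2 GC boxes, Efnb1 held 2 TGGGAA matches and Efnb2 held 3 GC boxes. ATCAAAG was found upstream of 0 of the 10 listed genes and in 3.21% of 32851 promoters. CTTTG was found upstream of 3 of them, Efna1, Efna4 and Epha2, and in 48.6% of promoters. TGGGAA was found upstream of Efnb1 alone and in 21.6% of promoters, and GGGCGG upstream of 7 genes and in 32.7% of promoters. A listed gene was counted where any of its promoters held a match, whereas the percentages are over single promoters. Efna1 has promoters with and without CTTTG. A match is a description of the letters, and a window without one says nothing of more distant elements.

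Between ISC and AE the listed A-type receptor genes moved against the listed B-type ones. The further A-type receptor genes Epha4, Epha7 and Epha10 were lower in AE, as the B-type ones were. Epha1 stood at 51.1, 38.9 and 43.5 CPM in ISC and at 89.5, 174 and 118 CPM in AE, with 29.6 ± 1.504 CPM at E12.5 and 18.3 ± 0.672 CPM at E14.5. The AE libraries were the highest and the most spread. It was 2.85-fold higher in AE than in ISC (log2 change 1.51 ± 0.19 SE, adjusted p = 7.23e-06). Zyx, which encodes the focal adhesion protein zyxin and is annotated across part of Epha1 on the opposite strand, stood at 149 ± 38.2 CPM in ISC and 166 ± 36.3 CPM in AE, and 5.54% of the 50-base stretches of Epha1 are shared with other genes.

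Epha2, a receptor gene known from epithelial sheets and from tumours, stood at 103, 108 and 99.7 CPM in AE. In ISC it stood at 82.3, 45.6 and 33.7 CPM, with replicate 1 apart from the other two, and the embryonic libraries lay between 28.4 and 37.4 CPM. The AE libraries did not overlap with the rest, but the ISC range overlapped that of E12.5. Epha2 was 1.93-fold higher in AE than in ISC (log2 change 0.95 ± 0.23 SE, adjusted p = 0.00200).

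Efna1, the gene of an A-type ligand first known as a cytokine-induced protein, was the only listed gene that was higher at each step of the course. It stood at 3.56, 1.64 and 1.94 CPM at E12.5, at 11.7, 12.9 and 9.67 CPM at E14.5, at 34.3, 25.1 and 20.4 CPM in ISC and at 58.6, 46.7 and 49.8 CPM in AE. No 2 groups overlapped. The AE level was 1.95-fold that of ISC (log2 change 0.96 ± 0.23 SE, adjusted p = 0.00194) and 21.3-fold that of E12.5 (log2 change 4.41 ± 0.27 SE, adjusted p = 1.94e-09).

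Efna4, a second A-type ligand gene, followed the crypt-high receptor genes instead. It stood at 25.9, 28.1 and 41.4 CPM in ISC and at 6.59, 6.70 and 4.34 CPM in AE, with 18.5 ± 3.23 CPM at E12.5 and 10.8 ± 0.909 CPM at E14.5. It was 5.31-fold lower in AE than in ISC (log2 change -2.41 ± 0.22 SE, adjusted p = 2.97e-07), and the groups did not overlap. Efna1, Efna4 and the further family gene Efna3 all lie on chromosome 3. Of them Efna1 was higher in AE, and Efna4 and Efna3 were lower. A share of 7.68% of the 50-base stretches of Efna4 belongs also to an annotated gene on the opposite strand, so its count is uncertain by that overlap.

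**Figure D2:**
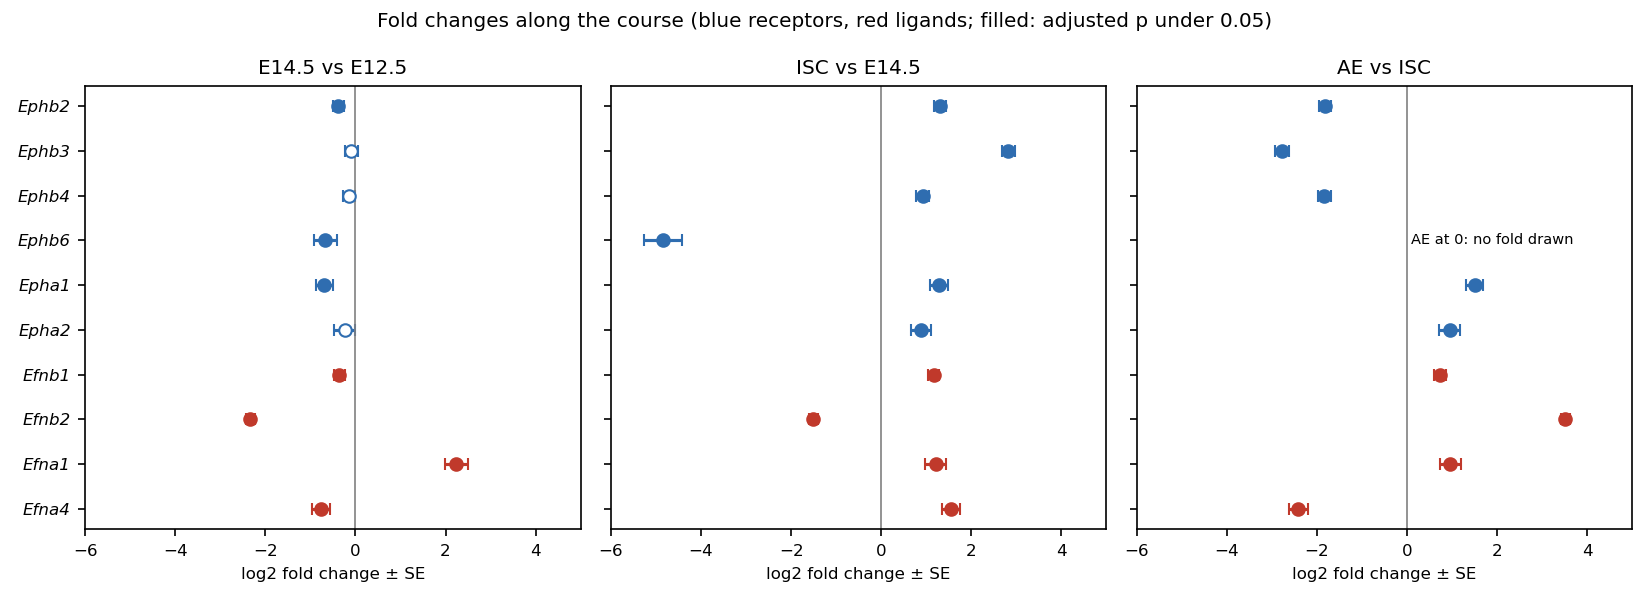
Log2 fold change ± SE from the fit for the 10 listed genes in the 3 comparisons along the course, receptors in blue and ligands in red, filled where the adjusted p was under 0.05. Between ISC and AE the B-type receptor genes lie left of 0 and Efnb1, Efnb2, Efna1, Epha1 and Epha2 right of 0, with no fold drawn for Ephb6, which was at 0 in AE.

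To set receptors against ligands, levels were divided by the coding length in kilobases (CPM per kb) and summed in each library. On this scale the 4 B-type receptor genes summed to 165 ± 8.50 in ISC and 43.7 ± 9.78 in AE. The 2 B-type ligand genes summed to 59.7 ± 4.72 in ISC and 330.4 ± 15.5 in AE. The log2 ratio of B-type receptor to ligand sums was 1.47 ± 0.12 in ISC and -2.94 ± 0.25 in AE. By coding length, receptors were thus 2.77 times the ligands in the crypt and ligands 7.67 times the receptors in the villus. The ratio fell 21.2-fold from ISC to AE, and the libraries of the 2 groups lay far apart. These sizes depend on the length used. Efnb2 has 1008 coding bases and 6855 bases of merged exons, against 2988 and 4640 for Ephb4. The B-type ratio was not computed with other lengths. No test was made of these sums, since their members were chosen with earlier results known.

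The listed A-type genes gave the opposite order. Their 2 receptor genes summed to 33.6 ± 10.4 CPM per kb in ISC and 78.7 ± 15.8 in AE, while their 2 ligand genes summed to 94.7 ± 7.48 and 93.6 ± 10.7. The A-type ligand sums overlapped between ISC and AE, because Efna4 was high in the one and Efna1 in the other. The log2 ratio of A-type receptors to ligands was -1.54 ± 0.41 in ISC and -0.26 ± 0.42 in AE. ISC replicate 1, with its high Epha2, gave the highest ISC value at -1.10.

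**Figure D3:**
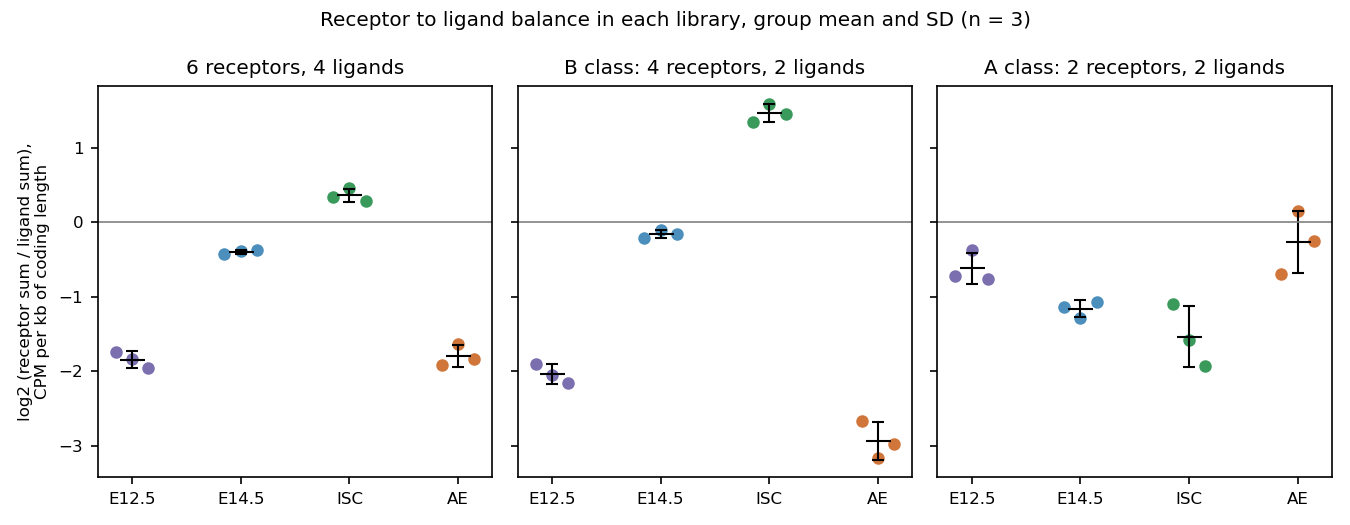
Log2 ratio of summed receptor to summed ligand levels (CPM per kb of coding length) in each library, for all 10 genes, for the B-type genes and for the A-type genes, with the group mean and SD. The B-type ratio is highest in ISC and lowest in AE, and the A-type ratio is lowest in ISC.

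Over all 10 genes the log2 ratio was 0.36 ± 0.08 in ISC, -1.79 ± 0.15 in AE, -1.84 ± 0.11 in E12.5 and -0.39 ± 0.03 in E14.5. E12.5 thus lay at the level of AE by this measure, with overlapping libraries. The libraries of E12.5 and AE did not overlap, with AE the lower, for the B-type genes, the mean of log2 levels and all family genes. With levels not divided by length the log2 ratio over the 10 genes was 2.304 in ISC and -0.12 in AE. With the length of all merged exons it was 1.09 and -0.24. The sign for E14.5 turned with the treatment of length, to 1.34 without division and 0.84 with merged exons. The sign for ISC turned with the mean of log2 levels, to -1.26. The ratio of ISC was above that of AE under each of the 6 other ways of summing except the A-type genes alone. That mean gave 1.36 more in ISC than in AE, on the log2 scale, and all 22 family genes gave 2.12 more.

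The make-up of the sums differed as much as the sums. Ephb4 made up 46.8 ± 3.04% of the summed receptor level in ISC and 21.3 ± 5.99% in AE, and Ephb2 27.3 ± 1.7995% and 12.54 ± 2.76%. Epha1 and Epha2 made up 35.1 ± 9.76% and 28.9 ± 0.865% in AE, against 7.65 ± 0.888% and 9.23 ± 4.18% in ISC. Among the ligands, Efnb2 was 86.1 ± 1.36% of the sum at E12.5, 56.1 ± 1.12% at E14.5, 15.3 ± 1.37% in ISC and 63.6 ± 1.41% in AE. In ISC no ligand gene dominated, with Efna4 at 33.2 ± 7.39%, Efna1 at 28.1 ± 7.39% and Efnb1 at 23.4 ± 1.37%.

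**Figure D4:**
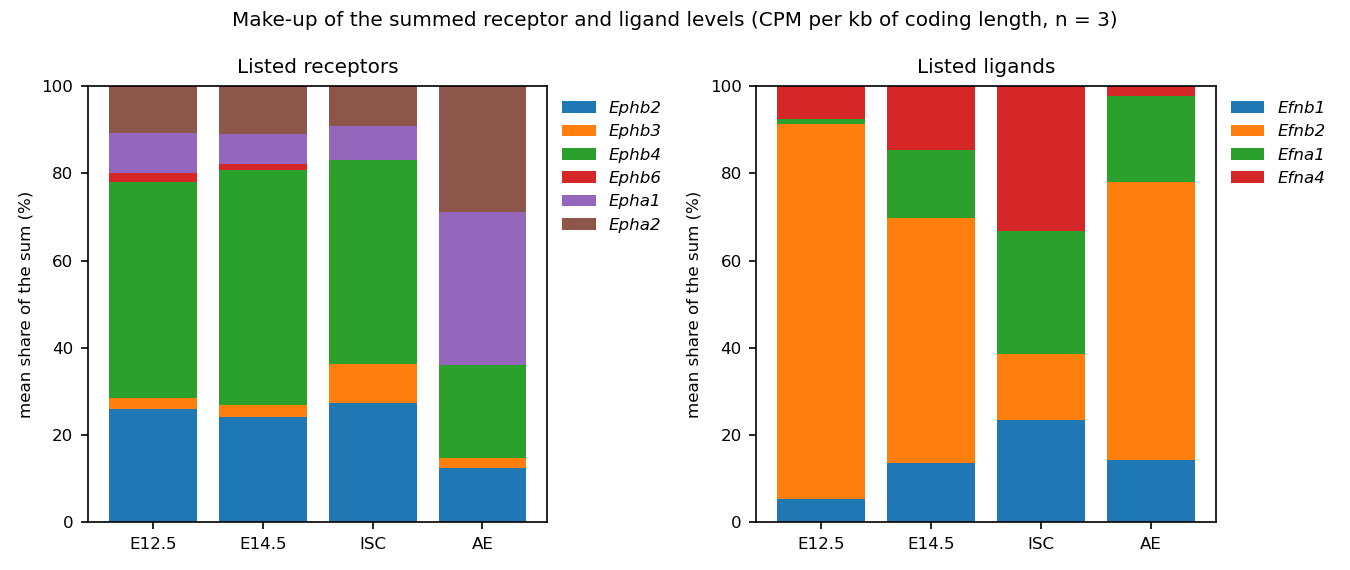
Mean share of each gene in the summed level of the 6 listed receptor genes and of the 4 listed ligand genes (CPM per kb of coding length, 3 libraries a group). Epha1 and Epha2 take most of the receptor sum in AE alone, and Efnb2 takes most of the ligand sum in every group except ISC.

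Adult stem cells and embryonic epithelium were compared through ISC and E14.5. All 10 genes were called, 8 higher and 2 lower in ISC, against 30.2% and 30.6% of all genes and 60.7% either way. The groups did not overlap for any of the 10, against 72% of all genes. Ephb3 was 7.09-fold higher (log2 change 2.83 ± 0.15 SE, adjusted p = 1.04e-09) and Efna4 2.94-fold (log2 change 1.56 ± 0.20 SE, adjusted p = 1.23e-05). Ephb2, Epha1, Efna1, Efnb1, Ephb4 and Epha2 were 1.85- to 2.48-fold higher. The 2 that were lower were Ephb6 and Efnb2, the latter 2.85-fold (log2 change -1.51 ± 0.10 SE, adjusted p = 9.96e-09). Crypt stem-cell markers moved with them, with 8 of 8 called higher, and the gate itself selected for Lgr5. Paneth-cell markers were higher in ISC for 6 of 6, from between 167 and 169 CPM in sum at E14.5 to between 2684 and 4297 CPM. Mesenchymal markers were lower for 13 of 14, from between 330 and 409 CPM to between 6.34 and 7.79 CPM, with Col6a1, Des and Lum at 0. Immune markers summed to between 30.3 and 32.4 CPM at E14.5 and to between 569 and 762 CPM in ISC, where Cd74 alone made up 94.9%. Of the 9 immune markers tested, 4 were called higher in ISC and 1 lower, and Ptprc was not called (adjusted p = 0.226). The part of these cell types in the Eph and ephrin differences was not tested. The median log2 change over the 10 genes was 1.19, against -0.0048 over all genes.

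Set against E12.5, the same ISC libraries had 8 of the genes higher and 2 lower, with 33.9% of all genes higher, 34.6% lower and 68.5% called either way. The groups did not overlap for 9 of the 10, against 73.9% of all genes. Efna1 was 10.9-fold higher (log2 change 3.45 ± 0.27 SE, adjusted p = 4.34e-08) and Ephb3 6.64-fold (log2 change 2.73 ± 0.15 SE, adjusted p = 8.16e-10), whereas Efnb2 was 14.4-fold lower (log2 change -3.84 ± 0.11 SE, adjusted p = 1.33e-12). The calls of the 2 A-type receptor genes were weaker. That of Epha2, 1.57-fold higher (adjusted p = 0.0204), was lost without ISC replicate 1 (adjusted p = 0.170) and without E12.5 replicate 1 or 2 (adjusted p = 0.0619 and 0.0590). That of Epha1, 1.501-fold higher (adjusted p = 0.0128), was lost without ISC replicate 1 (adjusted p = 0.0561).

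Change within the embryo was read from E14.5 and E12.5. The ligand genes Efnb2 and Efna1 moved most of the 10, in opposite directions. Efnb2 was 5.04-fold lower at E14.5 (log2 change -2.33 ± 0.10 SE, adjusted p = 2.71e-09) and Efna1 4.73-fold higher (log2 change 2.24 ± 0.26 SE, adjusted p = 1.09e-05). Of the 10 genes, 1 was called higher and 6 lower, against 23.6% and 25.6% of all genes and 49.2% either way, and the median log2 change was -0.37 against -0.015. The groups did not overlap for 9 of the 10, against 70.6% of all genes. Efna4 was 1.71-fold lower (adjusted p = 0.00534) and Epha1 1.62-fold (adjusted p = 0.00744). Ephb3, Ephb4 and Epha2 were not called, with log2 changes of -0.10 ± 0.14, -0.14 ± 0.14 and -0.24 ± 0.23 SE.

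The other 3 calls of that comparison were small. Ephb2 was 1.30-fold lower (adjusted p = 0.0250), Efnb1 1.28-fold (adjusted p = 0.0281) and Ephb6 1.59-fold (adjusted p = 0.0478). All 3 were lost without E12.5 replicate 1 or 3 or E14.5 replicate 1 or 3, which left 4 calls. The call of Ephb6 was lost without any 1 of the 6 embryonic libraries and without ISC replicate 1 (adjusted p from 0.0522 to 0.145). That of Efnb1 was also lost without E14.5 replicate 2 (adjusted p = 0.0989). Mesenchymal markers differed beside these genes, summing over 14 genes to between 170.1 and 212 CPM at E12.5 and to between 330 and 409 CPM at E14.5. Vim made up 84.2% of the E12.5 sum, at 160 CPM, and stood at 72.6 CPM at E14.5. Of the 14 genes, 13 were called higher and 1 lower, with a median log2 change of 3.05. The part of mesenchymal cells in the embryonic differences was not tested.

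The villus and the embryo were also set side by side. Against E14.5, AE had 5 listed genes higher and 4 lower, with 36.7% of all genes higher, 41.5% lower and 78.2% called. Against E12.5 it had 4 higher and 5 lower, with 38.4% of all genes higher, 43.7% lower and 82.1% called. In each, 9 of the 10 did not overlap, against 81.5% and 82.5% of all genes. The 2 comparisons share the AE libraries. Markers of other cell types differed as well. In AE against E14.5, 7 of 7 goblet-cell, 6 of 7 enteroendocrine and 5 of 6 Paneth-cell markers were higher, and 14 of 14 mesenchymal markers were lower. Their part in the differences of the Eph and ephrin genes was not tested. Epha1 was 6.94-fold above E14.5 (log2 change 2.80 ± 0.20 SE, adjusted p = 1.27e-08) and 4.28-fold above E12.5 (log2 change 2.10 ± 0.19 SE, adjusted p = 1.41e-07). Efnb1 was 3.74- and 2.91-fold higher and Epha2 3.58- and 3.03-fold higher. Efnb2 was 4.04-fold above E14.5 (log2 change 2.01 ± 0.10 SE, adjusted p = 2.43e-10). Ephb4 was 1.88- and 2.08-fold lower and Ephb2 1.43- and 1.86-fold lower. When the change from ISC to AE was tested against that from E12.5 to E14.5, 4 genes had the more positive adult change and 6 the more negative, against 25.2% and 29.4% of all genes and 54.6% either way.

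Of the 12 further family genes, 8 passed the filter, and 7 of these had their highest mean level in the embryo, Efna3 being the exception. Epha7, an EphA receptor gene known from the developing nervous system, stood at 144, 143 and 131 CPM at E12.5 and at 105, 109 and 89.3 CPM at E14.5. In ISC it stood at 6.65, 5.77 and 6.22 CPM and in AE at 2.28, 1.47 and 1.83 CPM. It was 16.3-fold lower in ISC than at E14.5 (log2 change -4.03 ± 0.14 SE, adjusted p = 1.65e-11). At E12.5 its level per length, 46.6 ± 2.38 CPM per kb of coding sequence, lay between those of Ephb2, 28.4 ± 2.55, and Ephb4, 54.0 ± 2.69.

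Efna5, an A-type ligand gene that also binds EphB2, stood at 35.4, 37.2 and 33.1 CPM at E12.5 and at 28.7, 27.2 and 28.4 CPM at E14.5. A single read was counted over the 3 ISC libraries and a single read over the 3 AE libraries. Efna2, another A-type ligand gene, went from 18.5 ± 1.01 CPM at E12.5 to 3.17 ± 0.113 CPM at E14.5, 0.387 ± 0.375 in ISC and 0.149 ± 0.176 in AE. The embryonic step was 5.82-fold (log2 change -2.54 ± 0.29 SE, adjusted p = 8.42e-06). Efnb3, the third B-type ligand gene, was 9.01 ± 0.390 CPM at E12.5 and 3.39-fold lower at E14.5 (log2 change -1.76 ± 0.34 SE, adjusted p = 0.000690). The same mesenchymal markers that were present in the embryonic libraries summed to at most 10.1 CPM in the adult ones, and enteric neural markers to between 12.48 and 22.8 CPM in the embryo and at most 10.3 CPM in the adult. Their part in the embryonic levels of these genes was not tested.

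Epha4, a receptor gene that binds both classes of ephrin, was higher in embryo and crypt than in AE. It stood at 51.5, 71.8 and 59.9 CPM at E12.5, at 33.2, 31.8 and 31.5 CPM at E14.5, at 36.1, 38.6 and 45.8 CPM in ISC and at 6.13, 5.88 and 3.998 CPM in AE. It was 7.33-fold lower in AE than in ISC (log2 change -2.87 ± 0.17 SE, adjusted p = 7.25e-09). ISC was 1.52-fold below E12.5 (adjusted p = 0.00250). ISC and E14.5 did not differ past the threshold (adjusted p = 0.0768), although their libraries did not overlap. In a fit of the 2 groups alone ISC was called above E14.5 (adjusted p = 0.0319). Efna3 was highest in ISC at 7.79, 7.03 and 13.3 CPM and 3.06-fold lower in AE (log2 change -1.61 ± 0.35 SE, adjusted p = 0.000996), and 8.13% of its 50-base stretches are shared with an annotated gene on the opposite strand. Between AE and ISC 4 of the 8 were called lower, Epha4, Epha7, Epha10 and Efna3, and the other 4 were not called, against 35.2% of all genes lower. At E14.5 against E12.5, 4 were lower, Epha4, Epha7, Efnb3 and Efna2, and the rest not called, against 25.6% of all genes lower and 49.2% called either way. In ISC against E14.5, 4 were lower and 1 higher, against 30.6% and 30.2% of all genes. In AE against E14.5, 7 were lower and 1 higher, against 41.5% and 36.7% of all genes.

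**Figure D5:**
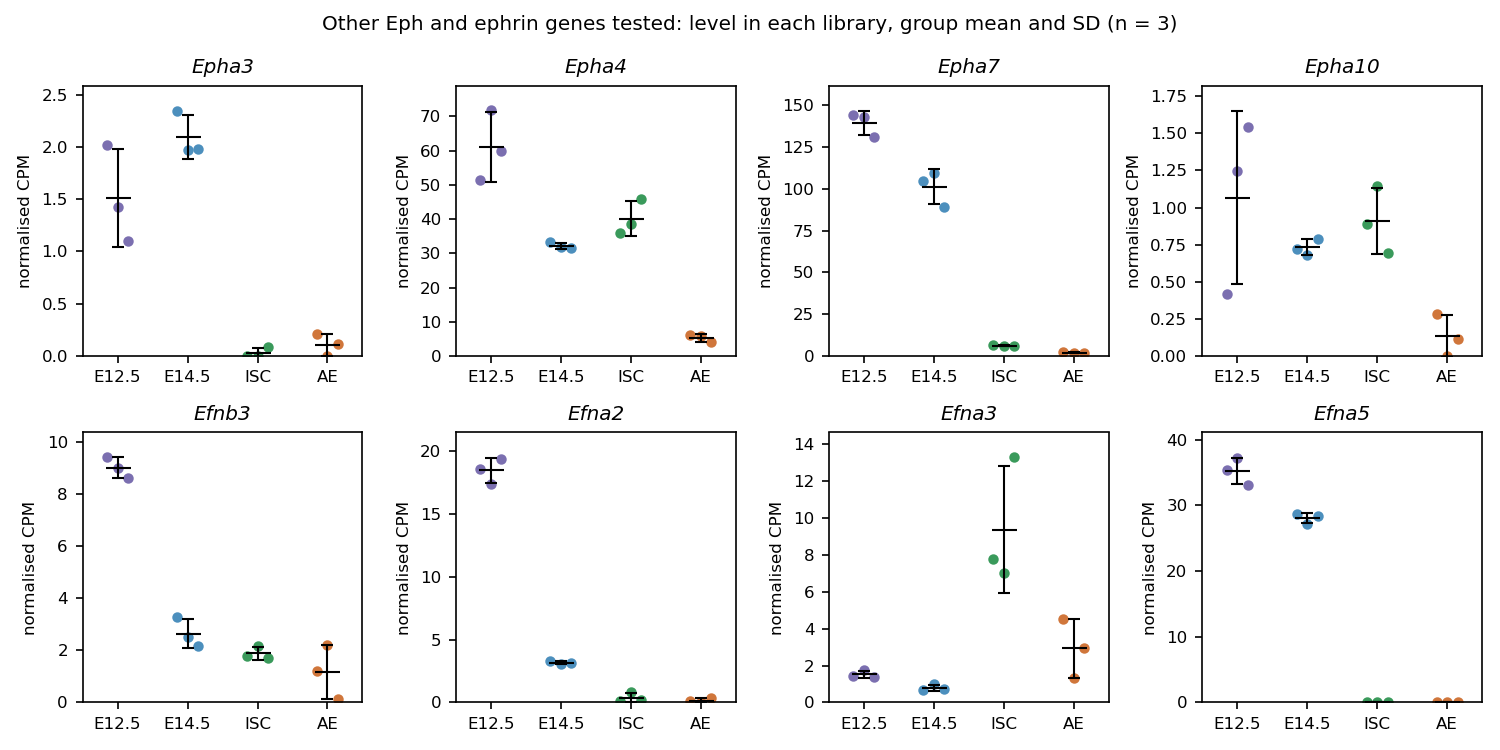
Level of the 8 further family genes tested, in normalised CPM (linear axes from 0, scaled per gene), in the 3 libraries of each group, with the group mean and SD. Epha7, Efna2, Efna5 and Efnb3 are highest in the embryo, Epha4 is low in AE only, and Efna3 is highest in ISC.

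The remaining 4 family genes were too low to test. Ephb1 had 7 reads over the E12.5 libraries and 76 over the E14.5 libraries, 44, 28 and 4 of them in replicates 1, 2 and 3. Epha5 had 17 and 18 reads, Epha8 had 4 and 19, and Epha6 had 1 and 4. All 4 were at 0 in every adult library, which allows up to 0.0525 CPM in ISC and 0.0606 CPM in AE, by counting error alone.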

How the data were processed

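The authors deposited raw counts of reads per gene symbol, 1 table per library. Per the submitters' processing notes, the tools were STAR 2.3.1z13 and HTSeq 0.6.1p1, beside bcl2fastq 1.8.4 and SAMtools 1.2, with DESeq2 1.6.3 and mm9 also named. What each tool did, the annotation and the strand setting are not stated there. The 5 closing entries that name no gene stayed out. Of the reads listed, 33.4% to 58.1% fell outside genes. Ambiguous ones made up 0.531% to 1.00% and multiply aligned ones up to 5.96%.

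Counts were tested with edgeR 4.0.16 (R 4.3.3) with its quasi-likelihood test. The fit held the 12 libraries and a coefficient for each of the 4 groups, the edgeR expression filter, TMM scaling (factors 0.696 to 1.16) and Benjamini-Hochberg adjustment over 15342 genes at 0.05. Members of the same comparison were not adjusted on their own. DESeq2 1.42.0, limma 3.58.1 (voom), other scalings, no filter, 2 groups alone, a replicate block and leaving out each library were the alternatives. The tests were run on simulated counts first. Replicates differed by more than sampling noise, at 3.38 to 138 chi-square per degree of freedom. AE replicate 1 stood apart, at 138 and 125 from AE replicates 2 and 3, which were at 26.6 from each other. Its TMM factor was 0.836, against 0.702 and 0.696 for those libraries. The E14.5 pairs were the closest, at 3.38 to 9.7. Floors of 3 counts hold for counting error alone, because PCR copies can share a molecule. Where no separate culture or animal is named, p-values measure the spread between these libraries, which may be technical. That caveat bears most on comparisons with E14.5, since the labels do not give the size of its pools.

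Groups follow the titles. Coding lengths, exon overlaps and shared 50-base stretches came from GENCODE transcripts of GRCm38, a later build than mm9, and promoters from RefSeq GRCm38.p6, matched by symbol for 10 of 10 listed genes. The rule for naming took the 10 listed genes, the other family genes, 3 genes most like each of 4 members (of at least 20 CPM), up to 4 genes of each partner list (of at least 5 CPM) and a few group markers. Members and lists were chosen with earlier results of these data known. A gene that the rule names is not reported here.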

Additional observations from a re-analysis of the deposited data

Results flagged for a closer look

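For each listed gene the change from ISC to AE was set against the change from E12.5 to E14.5, by a test of the difference itself in the fit over all 12 libraries (54.6% of all genes passed it). All 10 genes passed.

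The ligand gene Efnb2 differed most, by 5.86 ± 0.14 SE on the log2 scale (adjusted p = 1.31e-11), since it was 5.04-fold lower at E14.5 than at E12.5 and 11.5-fold higher in AE than in ISC. The other genes whose adult change was the more positive were Epha1, by 2.21 (adjusted p = 1.29e-05), Epha2, by 1.19 (adjusted p = 0.00627), and Efnb1, by 1.10 (adjusted p = 0.000143). Each of these 4 was higher in AE than in ISC, and at E14.5 against E12.5 each was lower except Epha2, which was not called.

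Genes whose adult change was the more negative were Ephb3, at -2.68 (adjusted p = 2.66e-07), Ephb4, at -1.70 (adjusted p = 9.85e-06), Efna4, at -1.63 (adjusted p = 0.000330), and Ephb2, at -1.45 (adjusted p = 1.88e-05). At E14.5 against E12.5, Ephb2 and Efna4 were lower and Ephb3 and Ephb4 not called, and all 4 were 3.54- to 6.82-fold lower in AE. Efna1 was higher in both steps, and less so in the adult one, with a difference of -1.28 (adjusted p = 0.00632). Ephb6 gave -4.19 (adjusted p = 0.0438), a fitted value that depends on the prior count because AE held no read, and that call was lost with DESeq2 (adjusted p = 0.0681), limma-voom (0.293) and the replicate block (0.0706). It was also lost without any 1 of 11 libraries (adjusted p from 0.0560 to 0.141), ISC replicate 2 being the exception.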

How the results depend on the processing

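Over the 10 listed genes and 7 contrasts, 1272 of 1319 alternative values kept their direction and their side of the threshold. The count of listed genes called at E14.5 against E12.5, 7, ranged from 4 to 7 with a library left out. For the other comparisons the counts stayed within 1.5 times. Upper-quartile scaling shifted the median log2 change over all genes by -0.198, -0.244 and -0.261 in AE against ISC, E14.5 and E12.5. Of the listed genes Ephb3 alone changed direction. Its AE against E14.5 change of 0.06 was -0.19 with that scaling and ranged from -0.072 to 0.19 with a library left out. Its AE against E12.5 change of -0.04 was 0.016 in the 2 groups alone and ranged from -0.16 to 0.12. Neither was called in any setting. Of the other family genes, some low values turned with a library left out. They ranged from -2.21 to 2.36 for Efna5 in AE against ISC, from -0.63 to 0.16 for Epha10 in ISC against E12.5, and in the difference of the steps from -0.056 to 4.37 for Epha3 and from -1.90 to 2.67 for Efna5. The log2 receptor to ligand ratio of E12.5, E14.5, ISC and AE was -0.24, 1.34, 2.304 and -0.12 without division by length, -0.21, 0.84, 1.09 and -0.24 with merged exon length, and -1.50, -1.52, -1.26 and -2.62 as a mean of log2 levels. It was -2.04, -0.15, 1.47 and -2.94 for B-type genes, -0.62, -1.16, -1.54 and -0.26 for A-type genes, and -1.45 and -0.31 for all family genes in the embryo. These settings differ in the genes or lengths used by construction. The replicate numbers did not pair the libraries (correlations of deviations -0.0722 to 0.0717), and with a replicate block 6 in place of 7 listed genes were called at E14.5 against E12.5, without Ephb6 (adjusted p = 0.0780). Merged exon length, all family genes and the count over the listed genes were added after the data were seen.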

Other observations

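Genes of the signalling around the family moved in both directions between crypt and villus. Of 26 effectors of Eph receptors, 12 were higher and 7 lower in AE than in ISC, with a median log2 change of 0.07 against -0.05 over all genes. Kalrn, the gene of the exchange factor kalirin, stood at 12.4 ± 3.06 CPM in ISC and 118 ± 41.3 CPM in AE, and was 9.54-fold higher (adjusted p = 5.45e-08). Cdc42, the gene of a small GTPase of the actin cytoskeleton, was 2.86-fold higher (adjusted p = 9.86e-09). The Rac exchange factor gene Tiam1 went from 82.2 ± 7.76 to 10.9 ± 3.11 CPM, 7.37-fold lower (adjusted p = 4.93e-09), and the Src-family kinase gene Fyn was 4.01-fold lower (adjusted p = 1.44e-06).

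Of 14 partners of ephrins, 6 were higher and 5 lower. The PDZ scaffold gene Grip1 was 9.80-fold lower in AE (adjusted p = 6.68e-08) and the phosphatase gene Ptpn13 3.63-fold lower (adjusted p = 9.93e-06), while Stat3 was 4.71-fold and Pdzk1 10.7-fold higher (adjusted p = 7.53e-08 and 8.41e-08). Of 14 genes of shedding and turnover, 8 were higher and 3 lower, with the rhomboid protease gene Rhbdl2 at 3.69 ± 0.338 CPM in ISC and 27.4 ± 7.51 CPM in AE. The phosphatase gene Ptprj was 2.04-fold higher (adjusted p = 5.86e-06) and Ptpro, another, 2.57-fold lower (adjusted p = 8.70e-05). These shares are to be read against 32.6% of all genes called higher and 35.2% called lower.

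Likeness was measured as Pearson's r of log2 CPM over the 12 libraries among 9111 other genes, a description that the 4 groups dominate. Most like Ephb2 were Gtf2ird2 (0.990), Dcp1b (0.987) and Cyr61 (0.985). Most like Ephb3 were Boc (0.987), Tns3 (0.986) and Diap2 (0.981). Most like Efnb2 were Cpe (0.980), Rnf24 (0.979) and Kalrn (0.971), and most like Efna1 were Tuba4a (0.992), Sfn (0.991) and Gsdmc2 (0.990). Kalrn shared with Efnb2 a high level at E12.5, at 196 ± 15.7 CPM, and a low one in ISC.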
